A study of Mus musculus with 18 samples.

Results

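The genes described here encode heat shock proteins and chaperonins, taken by symbol. They are the HSP70 family (Hspa), the small heat shock proteins (Hspb), the mitochondrial chaperonin Hspd1 with its lid Hspe1, and the HSP110 protein Hsph1. The J proteins of classes A, B and C (Dnaja, Dnajb and Dnajc) and the subunits of the cytosolic chaperonin (Cct) were taken too. Of 24419 gene symbols in the expression table, 78 matched these names, and the 68 that had 1 FPKM or more in some mouse of the 18 were kept. FPKM counts sequenced fragments relative to the length of the transcript and to the mapped fragments of the library, so levels can be compared between genes per length. The 68 genes were 13 of the HSP70 family, 7 of 8 small heat shock proteins, Hspd1, Hspe1 and Hsph1. They also held 4 class A, 10 of 13 class B and 24 of 28 class C J proteins, and 7 of 9 chaperonin symbols. The 10 left out were Hspb9, Dnajb7, Dnajb8, Dnajb13, Dnajc5b, Dnajc5g, Dnajc6, Dnajc22, Cct6b and Cct8l1, of which the highest, Dnajb13, reached 0.466 FPKM in its highest mouse. Among those kept, 66 were at 1 FPKM or more in all 18 mice. The exceptions were Dnajc12, which peaked at 1.42 FPKM, and Dnajb3, which passed only through the 72 h group and so had to differ there.

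Chaperones bind unfolded or partly folded proteins and help them to fold, to be refolded or to be degraded. HSP70 proteins work in cycles of ATP hydrolysis that J proteins start and direct to clients, small heat shock proteins hold unfolded proteins without using ATP, and chaperonins enclose a client in a ring. When unfolded proteins accumulate in the cytosol, the transcription factor HSF1 raises the inducible chaperones. The endoplasmic reticulum and the mitochondria have their own sets, and heart muscle is known for high levels of small heat shock proteins that bind sarcomere and cytoskeleton proteins.

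The study followed the first hours and days of acute myocardial infarction (AMI) in male C57BL/6 mice that were 8 weeks old. All mice were anaesthetised with sodium pentobarbital, and AMI was made by tying the proximal left anterior descending coronary artery, whose territory includes the apex of the left ventricle. The AMI mice were taken in groups of 3, the first 10 min and 1 h after the artery was tied and the others after 6 h, 24 h or 72 h. A further 3 mice were the Control group, which the study calls sham. The tissue was left ventricle, in the AMI mice from the infarct region, and polyadenylated RNA was sequenced. Each library came from 1 mouse.

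All libraries were given as FPKM, whose sum over all symbols ran from 542418 to 600467 per mouse. The number of reads behind a value is unknown, so no counting error can be given. Heart tissue was evident in every library: the summed FPKM of 9 cardiomyocyte genes (Myh6, Myl2, Actc1, Tnnt2, Tnni3, Atp2a2, Slc2a4, Cs and Pdk2) was 53151 to 56892 in control mice. None of these genes was at 0 in any mouse. The same sum was 43703 to 54030 at 6 h, 33370 to 42645 at 24 h and 19266 to 24136 at 72 h, with 3 of 9, 7 of 9 and 9 of 9 genes called lower. The sum of 7 macrophage and monocyte genes was 187 to 212 in control mice, 477 to 657 at 24 h and 3410.1 to 4525 at 72 h. The sum of 6 neutrophil genes went from 2.32 to 5.0 in control mice to 117 to 1002 at 6 h. The sum of 8 fibroblast genes went from 223 to 245 in control mice to 2383 to 3083 at 72 h. In whole tissue, fewer cells of a type and less RNA per cell cannot be told apart.

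Promoters are shown for 8 genes whose levels carry the results below, or whose motifs differ from what their levels did. RefSeq promoters (GRCm38.p6, 250 bases before to 50 bases after the start) were found for 57 of the 68 genes and were searched on both strands. The heat shock element, the site of HSF1, was searched as GAANNTTC or TTCNNGAA (2 units) and as GAANNTTCNNGAA or TTCNNGAANNTTC (3 units, each of which holds the shorter form). The ER stress element was searched as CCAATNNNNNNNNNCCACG or its reverse complement. A gene was counted where any of its promoters held the motif. The 2-unit form stood in 15.06% of 32851 promoters, in 16.97% of the 27025 genes that these belong to and in 18 of 57 chaperone genes. The 3-unit form stood in 0.6027% of promoters, in 0.6623% of genes and in 4 of 57. The ER stress element stood in 0.1187% of promoters, in 0.1369% of genes and in 2 of 57. A match is a description of these letters and not a bound site. Capitals mark the motif in each stretch, all read 5′ to 3′ on the gene's own strand.
Hspa1a, chr17:34972217-34972306, minus strand: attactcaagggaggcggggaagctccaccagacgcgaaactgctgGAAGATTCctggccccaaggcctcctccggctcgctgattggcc
Hspa1b, chr17:34959299-34959388, minus strand: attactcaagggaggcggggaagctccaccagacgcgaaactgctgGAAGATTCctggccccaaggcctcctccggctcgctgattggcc
Hspb1, chr5:135887769-135887858, plus strand: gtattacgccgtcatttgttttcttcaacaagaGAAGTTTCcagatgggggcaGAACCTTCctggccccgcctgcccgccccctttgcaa
Dnajb4, chr3:152193846-152193915, minus strand: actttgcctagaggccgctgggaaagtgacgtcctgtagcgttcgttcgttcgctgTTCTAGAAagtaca
Hspd1, chr1:55088038-55088097, minus strand: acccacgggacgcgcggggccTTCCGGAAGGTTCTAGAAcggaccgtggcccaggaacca
Hspe1, chr1:55088039-55088088, plus strand: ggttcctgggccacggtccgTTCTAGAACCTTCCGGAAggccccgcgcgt
Hspa5, chr2:34771980-34772059, plus strand: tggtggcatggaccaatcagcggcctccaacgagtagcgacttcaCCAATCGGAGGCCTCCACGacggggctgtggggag
Dnajc3, chr14:118937807-118937866, plus strand: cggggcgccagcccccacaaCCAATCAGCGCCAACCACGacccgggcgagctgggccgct

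The promoters of Hspa1a and Hspa1b were identical at 296 of 300 bases. Hspd1 and Hspe1 lie head to head on chromosome 1 with 215 bases between their starts, so their stretches are the same region read on opposite strands. The 3-unit form was found in Dnajb6, Hspd1, Hspe1 and Hsph1, and the ER stress element in Hspa5 and Dnajc3. Among genes whose promoters are not shown, the 2-unit form was found in Cct2, which was called higher at 6 h. It was also found in Hspb3 and Hspb8, which were called lower then. Neither form was found in Dnajb1, which was called higher at 6 h. Hspa1a spans chr17:34969190-34972156 and Hspa1b chr17:34956436-34959238, both on the minus strand (GENCODE M21, GRCm38), and each is a protein-coding gene. Some of these genes have near-identical copies, and reads of such stretches could be split between copies. Of the 100-base windows of the longest coding transcript, 48.64% of those in Hspa1a and 49.93% of those in Hspa1b occurred exactly in another gene (for both, the other member of the pair). The share was 62.83% in Hspa8, 42.72% in Hspb1, 30.97% in Dnajb6, 26.94% in Hspd1, 20.44% in Hspe1 and 14.83% in Dnaja1. The levels of these genes are therefore uncertain. For Cct2, Cct3, Cct4, Cct5, Cct7 and Cct8 the share was 0.

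Little was called in the first hour, and the genes then moved in several directions. A gene was called where limma's adjusted p, taken over all genes tested, was under 0.05. At 10 min, 0 of 68 genes were called in either direction, against 0.248% of all 13297 genes tested called higher and 0.0978% called lower. An unadjusted p under 0.05 was found for 10 of 68, and for 1955 of all 13297 genes, a similar share. At 1 h the counts were again 0 and 0, against 0.669% of genes called higher and 0.0526% called lower. There, 8 of 68 had an unadjusted p under 0.05, as did 1673 of all 13300 genes, again a similar share. At 6 h, 7 genes rose and 7 fell, against 11.6% of all genes called higher and 16.8% called lower. With FPKM as deposited, the share of the 68 was thus not above the background in either direction at 6 h. At 24 h, 28 rose and 7 fell, against 26.2% and 11.4% of all genes. At 72 h, 29 rose and 27 fell, against 53.1% and 24.2% of all genes. Dnajb3, which passed the filter only through the 72 h group, is among the 29. The share of the 68 called higher was above the background at 24 h (41.2%) and below it at 72 h (42.6%), and the share called lower was above the background at 72 h (39.7%). The shares over all genes are also the background for the counts of each family and list below. Groups of 3 mice can stand apart without a call. At 10 min, 1623 of all 13297 genes had every mouse above every control mouse, and 1084 had every mouse below. Such shares at later times are not given here.

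At 72 h the 68 genes had a median log2 fold change of 0.10, and all genes tested one of 0.29. At 24 h the median was 0.15 for the 68 genes and 0.13 for all genes. The split between rises and falls moved with the scaling. With samples scaled by the median of ratios, which centres all genes near 0, 14 were called higher and 4 lower at 6 h, where this scaling called 14.8% of all genes higher and 11.4% lower. It gave 21 higher and 12 lower at 24 h, against 19% and 17.4% of all genes. At 72 h it gave 19 higher and 32 lower, against 39.3% and 35.7%. The summed FPKM of the 68 genes was 7032 to 7259.6 in control mice, 8589.8 to 12065 at 6 h, 10628 to 12087 at 24 h and 5528 to 5849 at 72 h. The ranges at 6 h, 24 h and 72 h did not overlap that of the control mice. Leaving out 1 mouse gave 3 to 9 rises and 3 to 9 falls at 6 h, and 12 to 27 rises and 0 to 9 falls at 24 h. The counts at 6 h were 3 and 3 without any 1 control mouse. Over all genes there were then 763 to 877 rises and 852 to 1016 falls, in place of 1543 and 2233. At 24 h the rises were 12 without Control replicate 1 and 15 without Control replicate 2, and the falls were 0 without any 1 control mouse and 4 without 24 h replicate 2. Over all genes, leaving out 1 control mouse at 24 h gave 1262 to 1646 rises and 366 to 468 falls, in place of 3496 and 1516. Of the calls, 6 of 14 at 6 h (Hspa1a, Hspa1b, Hspb1, Hspb3, Hspa12a and Dnajc11), 11 of 35 at 24 h and 51 of 56 at 72 h (Dnajb3 among these 51) held without any 1 mouse.

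**Figure D1:**
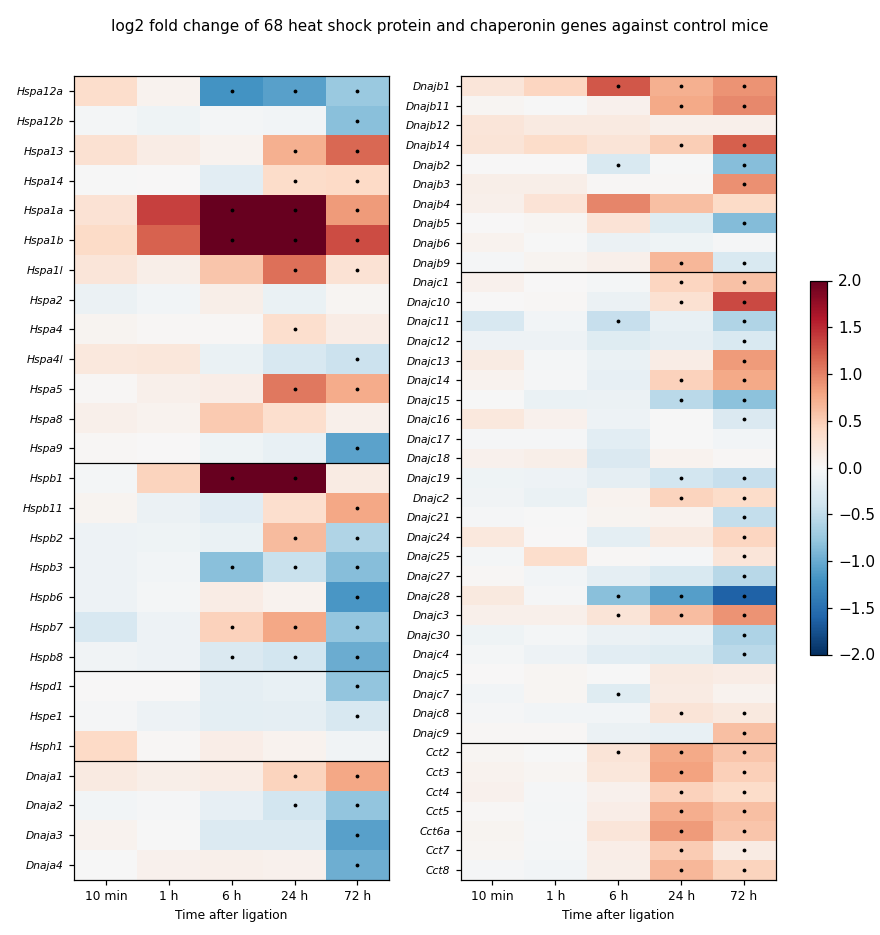
log2 fold change (on log2(FPKM + 1)) of the 68 genes at 5 times after ligation against 3 control mice, in rows grouped by family with lines between families and with colours that end at -2 and 2. Dots mark genes with a limma adjusted p under 0.05: 0 for both 10 min and 1 h, 14 for 6 h, 35 for 24 h and 56 for 72 h, in both directions together. Median-of-ratios scaling turns the sign of 3 of the small rises at 72 h (Cct7, Dnajc8 and Dnajc25).

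Among the targets of HSF1, the inducible HSP70 genes and the small heat shock protein Hspb1 rose the most. Of 10 such genes, 4 rose and 0 fell at 6 h (Hspa1a, Hspa1b, Hspb1 and Dnajb1), 5 rose and 0 fell at 24 h (Dnaja1 joined these), while 4 rose and 2 fell (Hspd1 and Hspe1) by 72 h. Of the 5 rises at 24 h, 1 (Hspb1) was left without Control replicate 1. The list had a median log2 fold change of 0.74 at 6 h, against -0.08 for all genes, and 0.52 at 24 h. Hspa1a and Hspa1b encode near-identical HSP70 proteins that are low in unstressed tissue.

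Hspa1a was at 2.23, 2.59 and 3.38 FPKM in control mice, at 6.03, 2.85 and 2.42 at 10 min, and at 12.6, 5.60 and 8.79 at 1 h. The 6 h mice had 338, 82.6 and 118 FPKM, the 24 h mice 14.9, 8.03 and 35.7, and the 72 h mice 6.07, 5.62 and 5.36. Every mouse from 1 h on lay above every control mouse, and the 6 h mice lay above those of every other group. Against 1 h, Hspa1a rose at 6 h by 3.97 ± 0.50 on the log2 scale (SE, n = 3 and 3, limma adjusted p = 0.00406), where 9.32% of all genes were called higher and 11.2% lower. It then dropped by 3.11 ± 0.62 from 6 h to 24 h (adjusted p = 0.0261, lost without 24 h replicate 2 or any 1 of the 6 h mice, up to 0.0886), where 12.5% of all genes were called higher and 1.94% lower. Against control mice it stayed higher by 0.85 ± 0.12 at 72 h (adjusted p = 0.000185), a call that was lost when all 18 mice were fitted together.

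Hspa1b ran beside it, with 360, 79.1 and 126 FPKM at 6 h against 2.38, 2.28 and 4.63 in control mice (log2 fold change 5.28 ± 0.51, adjusted p = 0.00103). In both genes the 6 h mouse 1 was highest and mouse 2 lowest. The neutrophil sum had the same order in these mice (1002 in mouse 1, 117 in mouse 2 and 377 in mouse 3). The cardiomyocyte sum had the opposite order (43703, 54030 and 48218). The part of either in the rise was not tested. At 24 h the rises of Hspa1a (2.23 ± 0.46, adjusted p = 0.0131) and Hspa1b (2.28 ± 0.44, adjusted p = 0.0112) were lost without Control replicate 1, and that of Hspa1a also without Control replicate 2. The adjusted p was then 0.0505 for Hspa1b and up to 0.057 for Hspa1a. The related testis-enriched gene Hspa1l, next to this pair, was at 3.16, 2.80 and 2.68 FPKM in control mice and at 7.32, 7.42 and 7.16 at 24 h, where it rose by 1.10 ± 0.09 (adjusted p = 0.00159). The 24 h mice of Hspa1l were all above the control mice.

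Hspb1, whose protein binds unfolded clients and actin filaments, had the highest FPKM among the 68 genes at 6 h and 24 h. Its FPKM was 651, 599.6 and 703 in control mice, 4179, 3103 and 1681 in 6 h mice, 2896, 3273 and 4274 in 24 h mice and 657, 815 and 729 in 72 h mice. All 6 mice at 6 h and 24 h lay above all control mice, while the 72 h mice overlapped them. The 1 h mice, at 886, 803 and 964 FPKM, also lay above all control mice, although Hspb1 was not called at 1 h. The log2 fold change was 2.102 ± 0.29 at 6 h (adjusted p = 0.00356), 2.40 ± 0.16 at 24 h (adjusted p = 0.000926) and 0.17 at 72 h, which was not called. Between 6 h and 24 h Hspb1 was not called, whereas Hspa1a and Hspa1b were called lower.

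Dnajb1, the class B J protein that serves the cytosolic HSP70, was at 8.28, 8.47 and 11.3 FPKM in control mice and 40.9, 17.1 and 17.6 in 6 h mice. It was at 14.6, 15.5 and 17.8 in 24 h mice and 18.1, 18.3 and 17.8 in 72 h mice. It rose by 1.24 ± 0.32 at 6 h (adjusted p = 0.0263), with 1 mouse far above the others, and was still up by 0.90 ± 0.11 at 72 h (adjusted p = 7.95e-05). The 6 h call was lost without any 1 control mouse (adjusted p from 0.0573 to 0.0881). Its 24 h call was lost without Control replicate 1 or 2 (adjusted p = 0.052 and 0.0505). Dnaja1, a class A partner of HSP70, rose by 0.45 ± 0.13 at 24 h (adjusted p = 0.0333, lost without any 1 of 4 mice, up to 0.1175) and by 0.77 ± 0.12 at 72 h (adjusted p = 0.000315). Its FPKM was 12.9, 15.2 and 14.05 at 72 h against 7.42, 6.78 and 9.46 in control mice.

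Other genes of this list were not called at 6 h. Hspa8, the constitutive cytosolic HSP70, was at 804, 541 and 493 FPKM at 6 h and at 414, 392 and 452 in control mice (log2 difference 0.52 ± 0.17, adjusted p = 0.0633). Its groups did not overlap, although it did not pass the test. Dnajb4 had 148, 45.5 and 60.8 FPKM at 6 h against 25.9, 30.7 and 65.2 in control mice (adjusted p = 0.161). Hsph1, a nucleotide exchange factor of HSP70, had 49.3, 26.3 and 51.7 against 39.2, 32.1 and 40.4 (adjusted p = 0.702). Both overlapped between the groups, and none of the 4 genes with the 3-unit element was called at 6 h.

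**Figure D2:**
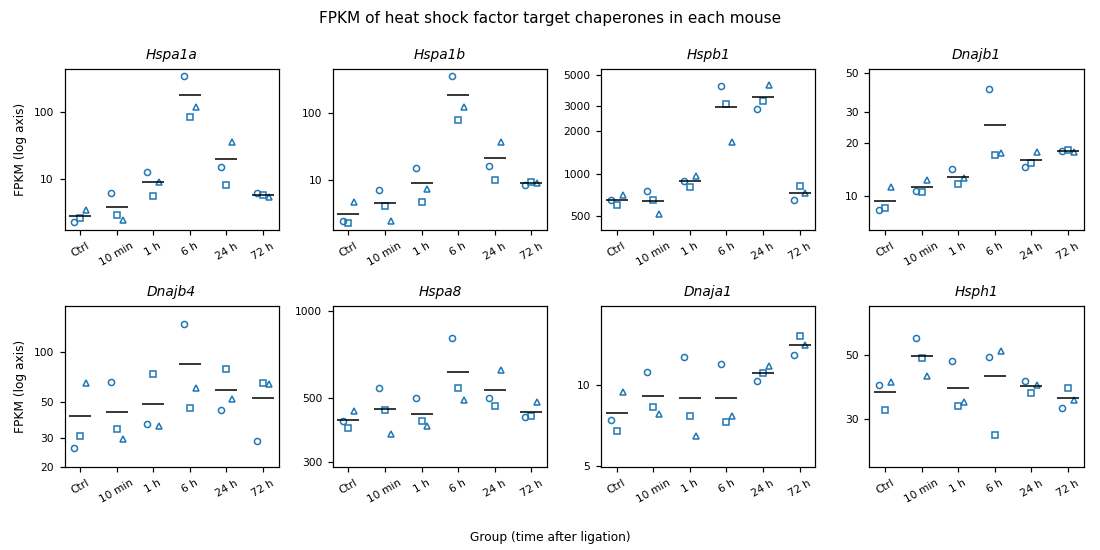
FPKM on a log axis of 8 chaperone genes of the HSF1 list in each of 18 mice, by group (circles, squares and triangles for replicates 1, 2 and 3, bar at their mean). Hspa1a and Hspa1b stand highest at 6 h, between 79.1 and 360 FPKM, and return towards the control level by 72 h, while Hspb1 is at 1681 to 4274 FPKM at both 6 h and 24 h.

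The small heat shock proteins of muscle rose or fell according to the gene at 6 h and 24 h and were mostly lower at 72 h. Of 6 (Hspb1, Hspb2, Hspb3, Hspb6, Hspb7 and Hspb8), 2 rose and 2 fell at 6 h, 3 rose and 2 fell at 24 h, and 0 rose and 5 fell at 72 h, the last under every scaling tried. The list's median at 72 h was -0.81. Hspb7, a heart-enriched protein tied to the sarcomere, was the most abundant in control mice. It was at 1146, 1242 and 1180.3 FPKM in control mice, 1729, 1845 and 1376 in 6 h mice, 1929, 2284 and 1930.0 in 24 h mice and 709, 695 and 688 in 72 h mice. No 6 h, 24 h or 72 h mouse fell within the range of the control mice.

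Hspb7 rose by 0.46 ± 0.11 at 6 h (adjusted p = 0.024, lost without 6 h replicate 1 or any control mouse, up to 0.0919). It rose by 0.78 ± 0.11 at 24 h (adjusted p = 0.00516) and was lower by 0.77 ± 0.08 at 72 h (adjusted p = 2.76e-05). Hspb2, which binds the myotonic dystrophy kinase, was at 149, 142 and 153 FPKM in control mice, 203, 253 and 234 at 24 h and 112, 94.4 and 86.8 at 72 h. It too rose at 24 h (0.63 ± 0.10, adjusted p = 0.00668) and fell at 72 h (-0.60 ± 0.10, adjusted p = 0.000456). Both genes changed direction beyond the spread of the mice.

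Hspb3 and Hspb8 were called lower at 6 h, 24 h and 72 h. Hspb3, a muscle small heat shock protein that pairs with Hspb2, was at 8.45, 9.02 and 9.39 FPKM in control mice and at 4.56, 4.28 and 4.86 at 6 h. The change was -0.84 ± 0.09 (adjusted p = 0.0016), and it was lower again at 72 h (-0.85 ± 0.09, adjusted p = 4.47e-05). Its 24 h call was lost without any 1 control mouse (adjusted p from 0.0584 to 0.0726). Hspb8, which takes clients to selective autophagy with BAG3, was at 757, 723 and 718 FPKM in control mice and at 409, 345 and 348 at 72 h (-1.0 ± 0.09, adjusted p = 1.11e-05). Smaller changes of -0.29 at 6 h and -0.37 at 24 h were called but lost without any 1 control mouse (adjusted p from 0.11 to 0.156). Hspb6, a partner of actin and of protein kinase A signalling in muscle, was at 322, 327 and 327 FPKM in control mice and at 349, 376 and 359 at 6 h. It was at 177, 128 and 133 at 72 h, where it fell by 1.16 ± 0.12 (adjusted p = 2.49e-05). The falls at 72 h took place beside the fall of all 9 cardiomyocyte markers, and the part of this in them was not tested.

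The remaining member of this family, Hspb11, also known as the intraflagellar transport protein Ift25, rose at 72 h from 3.34, 4.39 and 3.05 FPKM to 6.77, 5.73 and 8.04 (0.77 ± 0.14, adjusted p = 0.000894). With quantile normalization this was 0.29 and no longer called (adjusted p = 0.116). Cryab, the crystallin small heat shock protein that is not one of the 68 genes, moved in the same directions as Hspb7. It rose by 0.51 at 6 h and by 1.01 at 24 h (adjusted p = 0.0252 and 0.00507) and was lower by 0.71 at 72 h (adjusted p = 0.00022).

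**Figure D3:**
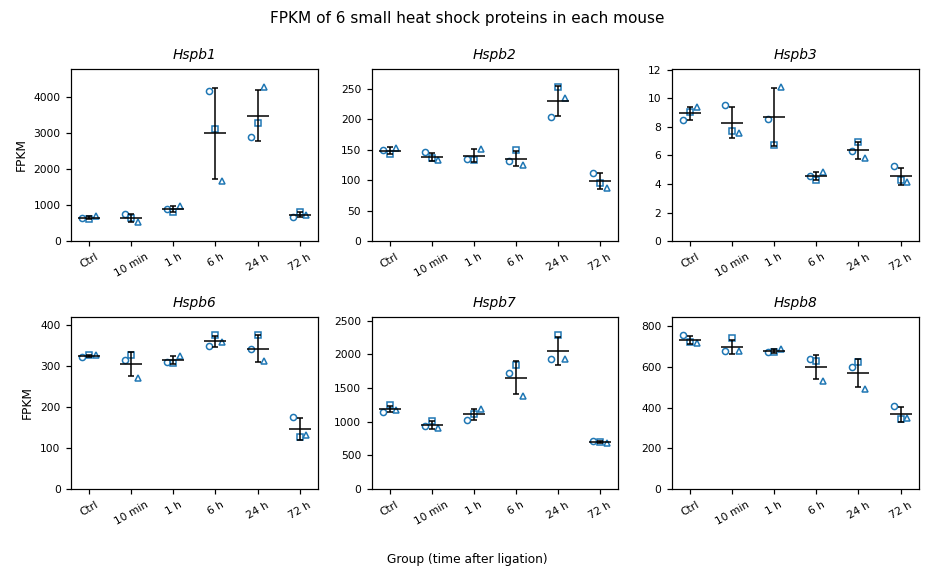
FPKM of 6 small heat shock protein genes in each mouse (circles, squares and triangles for replicates 1, 2 and 3), with the mean of 3 mice and its SD, by group; axes start at 0. Hspb7 and Hspb2 stand above the control mice at 24 h and below them at 72 h, while Hspb6 is lowest at 72 h, at 128 to 177 FPKM.

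The chaperones of the endoplasmic reticulum rose at 24 h and 72 h. Of 13 such genes, 1 rose at 6 h (Dnajc3, lost without any 1 of 5 mice, adjusted p up to 0.161), 9 rose and 0 fell at 24 h, and 9 rose and 2 fell at 72 h. Of the 9 rises at 24 h, 2 (Hspa5 and Dnajb11) were left without Control replicate 1, and 1 (Dnajb11) held without any 1 mouse. Of the 9 at 72 h, 8 held without any 1 mouse. The median log2 fold change of the list was 0.46 at 24 h and 0.74 at 72 h, against 0.13 and 0.29 for all genes. With median-of-ratios scaling these last counts were 6 and 0 at 24 h, and 8 and 3 at 72 h. Hspa5 (BiP), the HSP70 of this compartment, was at 237, 211 and 228 FPKM in control mice and 289, 208 and 248 in 6 h mice. It was at 507, 336 and 605 in 24 h mice and 326, 422 and 391 in 72 h mice. The 24 h and 72 h mice were all above the control mice, and the 6 h mice overlapped them.

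Hspa5 rose by 1.06 ± 0.21 at 24 h (adjusted p = 0.0113, 0.0504 without Control replicate 2) and by 0.74 ± 0.10 at 72 h (adjusted p = 0.000193). Several of its partners in the lumen rose as well. Dnajc3, a J protein of the lumen, was at 36.0, 35.3 and 39.1 FPKM in control mice, 51.2, 48.9 and 73.7 at 24 h and 61.6, 76.1 and 70.6 at 72 h (0.89 ± 0.09, adjusted p = 2.11e-05). Dnajc10, which also reduces disulfide bonds, rose at 72 h from 47.7, 50.8 and 53.5 FPKM to 116, 139 and 128 (1.31 ± 0.08, adjusted p = 1.57e-06).

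Dnajb11, a lumenal J protein, rose by 0.75 ± 0.11 at 24 h and by 0.96 ± 0.08 at 72 h (adjusted p = 0.00566 and 7.84e-06). Hspa13, a microsomal HSP70-like protein, rose by 0.72 ± 0.14 and 1.15 ± 0.10 (adjusted p = 0.0103, or 0.0512 without Control replicate 1, and 1.1e-05). Dnajb14, a membrane J protein, rose by 1.19 ± 0.12 at 72 h (adjusted p = 2.47e-05), from 1.38, 2.02 and 1.60 FPKM to 4.53, 5.88 and 4.81. Dnajb9, which recruits Hspa5 to clients and to the stress sensor IRE1, went the other way at 72 h. It was at 12.4, 13.1 and 12.5 FPKM in control mice, 21.1, 16.9 and 24.5 at 24 h and 10.2, 9.76 and 10.3 at 72 h. The 24 h mice were all above and the 72 h mice all below the control mice. The log2 fold changes were 0.66 ± 0.14 (adjusted p = 0.0128, up to 0.0578 without Control replicate 1 or 3) and -0.30 ± 0.07 (adjusted p = 0.00259, or 0.059 with all 18 mice in one fit).

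The second gene of this list called lower at 72 h was Dnajc16 (-0.28 ± 0.09, adjusted p = 0.018), at 2.77, 3.42 and 2.79 FPKM against 3.75, 3.92 and 3.86. That call was lost in 5 of 15 other settings, 3 of which left out 1 mouse (72 h replicate 1 or 3, or Control replicate 2), with an adjusted p of up to 0.094. Dnajb12 and Dnajc18 were not called at any time. In 11 of the 13 genes at 24 h the lowest mouse was mouse 2, which also had the lowest neutrophil sum of that group (42.9, against 210.5 and 968), and the part of this was not tested.

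Mitochondrial chaperones fell together at 72 h. Of 9 genes, 0 rose and 2 fell at 6 h, 0 rose and 3 fell at 24 h and all 9 fell at 72 h. The list's median at 72 h was -0.79, and the count there was 9 of 9 under every scaling tried. Hspa9 (mortalin), which pulls proteins into the matrix, was at 949.9, 1009 and 962 FPKM in control mice, 935, 879 and 829 at 24 h and 489, 487 and 423 at 72 h (-1.06 ± 0.09, adjusted p = 6.98e-06). Hspd1 (HSP60) fell from 656, 660 and 686 FPKM to 391, 416 and 353 (-0.79 ± 0.08, adjusted p = 3.34e-05). Its lid Hspe1 fell from 14.7, 13.97 and 14.6 to 11.4, 11.5 and 11.2 (-0.32 ± 0.06, adjusted p = 0.00142). In these 3 genes every 72 h mouse was below every control mouse.

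Dnajc28, of little known function, had the largest fall at 72 h among the 68 genes. It was at 43.3, 47.0 and 43.7 FPKM in control mice, 44.7, 47.3 and 40.1 in 1 h mice. It was at 19.7, 22.1 and 34.6 in 6 h mice, 32.5, 16.5 and 15.5 in 24 h mice and 15.4, 13.3 and 13.1 in 72 h mice. From 6 h on, every mouse was below every control mouse, and the fall at 72 h was -1.62 ± 0.08 (adjusted p = 3.27e-07). The falls at 6 h and 24 h (-0.83 and -1.10) lost their calls without a control mouse (adjusted p from 0.0504 to 0.0678). Dnaja3, a matrix J protein, fell by 1.08 ± 0.08 at 72 h (adjusted p = 3.15e-06). Dnajc11, part of the cristae-organising complex, was lower at 6 h (-0.46 ± 0.07, adjusted p = 0.00478) and at 72 h (-0.60 ± 0.07), and at 24 h it did not pass the test. Dnajc15 and Dnajc19, both of the import motor, were lower at 24 h and 72 h, and Dnajc30 at 72 h. The 24 h calls of both import genes were lost without any 1 control mouse (adjusted p from 0.0548 to 0.119). The cardiomyocyte sum at 72 h stood below that of control mice as well, and its part in these falls was not tested.

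**Figure D4:**
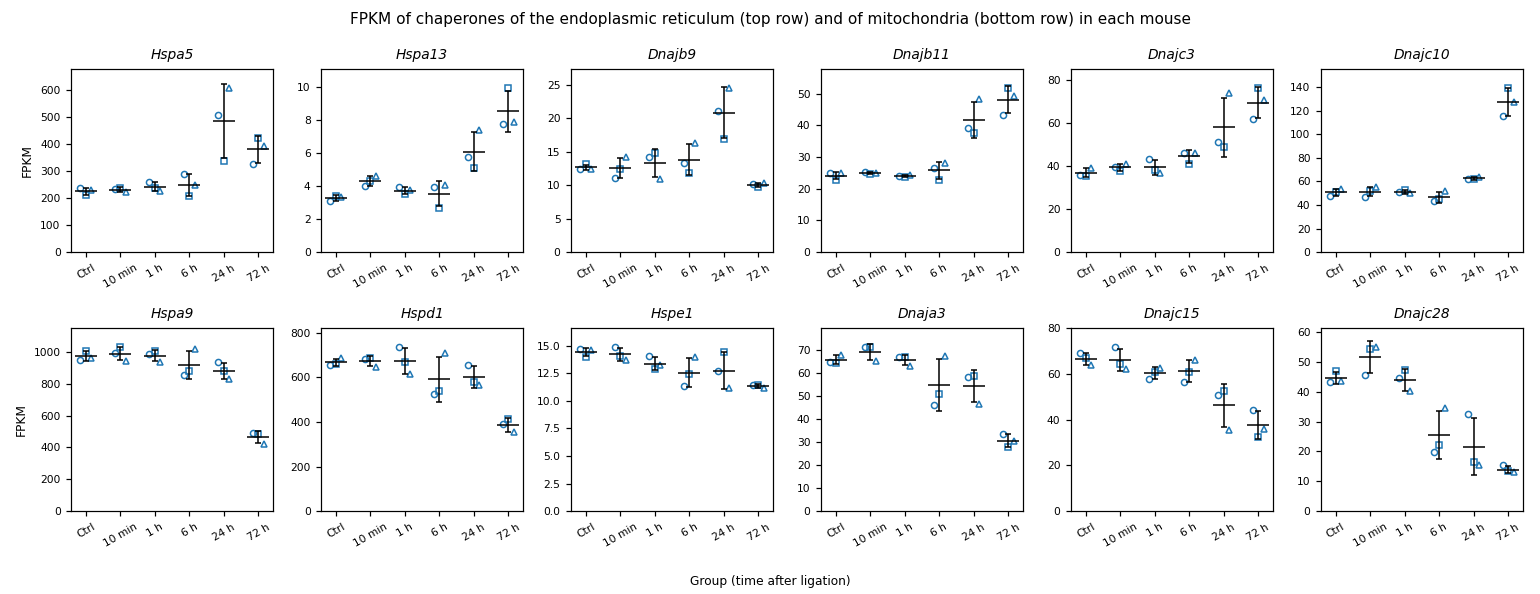
FPKM of 6 endoplasmic reticulum chaperone genes (top row) and 6 mitochondrial chaperone genes (bottom row) in each mouse (circles, squares and triangles for replicates 1, 2 and 3), with the mean of 3 mice and its SD, by group; axes start at 0. The top row rises at 24 h and 72 h, apart from Dnajb9, which is highest at 24 h and below the control mice at 72 h. In the bottom row the group means are lowest at 72 h, while single 24 h mice of Hspe1 and Dnajc15 lie as low.

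The subunits of the cytosolic chaperonin TRiC, which folds actin and tubulin, rose together at 24 h. All 7 (Cct2, Cct3, Cct4, Cct5, Cct6a, Cct7 and Cct8) were called higher at 24 h, by 0.46 to 0.85 on the log2 scale, under each scaling tried. All 7 were called higher at 72 h too, by 0.17 to 0.60, but 3 of 7 with median-of-ratios scaling and 6 of 7 with quantile normalization. Cct7 lost its 24 h call without Control replicate 1 or 2 (adjusted p = 0.056 and 0.0576). At 6 h, 1 of 7 was called, Cct2 (0.26 ± 0.07, adjusted p = 0.0289), and it lost the call without 6 h replicate 1 or any control mouse (adjusted p from 0.0553 to 0.113). Cct6a had the largest rise at 24 h, from 37.8, 39.7 and 42.4 FPKM to 63.1, 72.5 and 84.0 (0.85 ± 0.12, adjusted p = 0.00499). Cct4 had the smallest, from 60.9, 66.9 and 64.4 to 85.4, 87.1 and 92.4 (0.46 ± 0.08, adjusted p = 0.00768). In all 7 the 24 h mice lay above the control mice, a separation whose share over all genes at 24 h is not given here. The median of the 7 was 0.73 at 24 h and 0.47 at 72 h.

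The subunits also differed between mice in one direction. At 24 h, mouse 3 was highest and mouse 1 lowest in all 7 genes, and at 72 h mouse 2 was highest and mouse 1 lowest in all 7. Over the 68 genes, mouse 3 was highest in 32 and mouse 1 lowest in 23 at 24 h. At 72 h, mouse 2 was highest in 38 of the 68 and mouse 1 lowest in 35, so this order was not particular to TRiC. The 24 h range over the subunits ran from 124% to 210.1% of each subunit's control mean and the 72 h range from 108% to 171%. Cct7 had the smallest rise at 72 h (0.17 ± 0.07, adjusted p = 0.0479). Its call was lost without any 1 of 5 of the 6 mice (adjusted p up to 0.132), and median-of-ratios scaling turned the change to -0.14. Tcp1, the remaining subunit, which the symbol rule does not take, rose by 0.29 at 24 h and 0.23 at 72 h (adjusted p = 0.0282 and 0.0185). Proliferation markers had sums of 7.25 to 8.27 in control mice, 11.5 to 18.5 at 24 h and 68.7 to 101 at 72 h, and the part of this in the rise of TRiC was not tested.

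**Figure D5:**
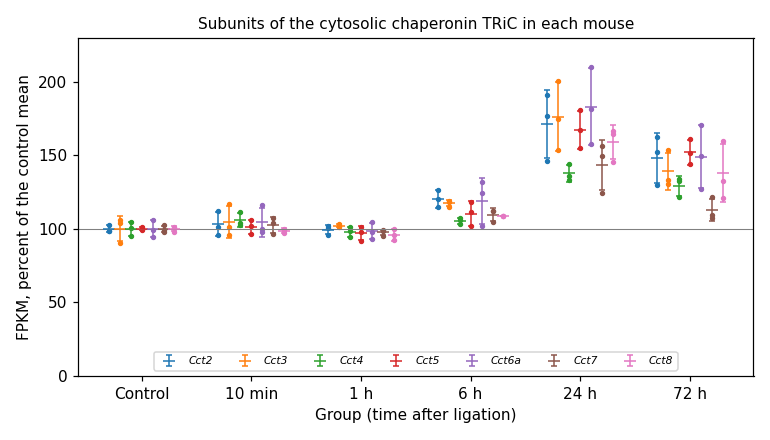
FPKM of 7 TRiC subunits in percent of each subunit's mean over 3 control mice, by group; dots are mice, horizontal marks the mean of 3 mice and bars its SD. All 24 h mice lie between 124% and 210.1%, above the control line at 100%, and the 72 h mice lie between 108% and 171%; at 72 h the rise of Cct7 turns to a fall under median-of-ratios scaling.

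Among the other HSP70 genes, Hspa12a, an atypical and distant member, fell at each late time. It was at 12.3, 12.6 and 12.0 FPKM in control mice and 4.33, 4.0 and 6.43 at 6 h (-1.19 ± 0.15, adjusted p = 0.00268). At 24 h it was at 7.11, 6.27 and 3.10 (-1.09 ± 0.24, adjusted p = 0.0162, lost without any 1 control mouse, up to 0.0621). At 72 h it was at 8.21, 6.47 and 6.19 (-0.75 ± 0.10, adjusted p = 0.000151). Every mouse from 6 h on was below every control mouse. Its paralogue Hspa12b, an endothelial gene, was called lower at 72 h (-0.84 ± 0.07, adjusted p = 5.33e-06). Hspa4, an exchange factor of HSP70, rose by 0.34 ± 0.08 at 24 h (adjusted p = 0.0176, lost without any 1 control mouse, up to 0.0805), and Hspa2, a testis-enriched HSP70, was not called at any time.

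The HSP70 family as a whole had 7 rises and 1 fall at 24 h and 6 rises and 4 falls at 72 h, with a median at 72 h of 0.15 that turned to -0.16 under median-of-ratios scaling. Without Control replicate 1, 2 of the 7 rises (Hspa1l and Hspa5) and 0 falls were left at 24 h, and only Hspa1l held there without any 1 mouse. The 24 h rises were 53.8% of the HSP70 family, where 26.2% of all genes were called higher. The family's 72 h shares, 46.2% higher and 30.8% lower, stood near those of all genes (53.1% and 24.2%). The same 2 shares are the background for the J protein classes that follow. J proteins of class A had 1 rise and 3 falls at 72 h. Dnaja4, expressed in muscle and heart, was at 25.2, 24.5 and 24.0 FPKM in control mice and at 12.2, 11.4 and 12.4 at 72 h (-0.98 ± 0.06, adjusted p = 1.82e-06). Dnaja2, a cytosolic partner of HSP70, fell by 0.79 ± 0.06 (adjusted p = 4.85e-06). Class B had 4 rises and 3 falls at 72 h, with falls in Dnajb2 (-0.85 ± 0.09, adjusted p = 2.66e-05), a neuron- and muscle-expressed co-chaperone, in Dnajb5 (-0.87 ± 0.10, adjusted p = 4.36e-05) and in Dnajb9. Dnajb3 stood at 0.968, 1.62 and 1.28 FPKM at 72 h and at 0.165, 0.113 and 0.346 in control mice. It is 1 of the 4 class B rises, but it passed the filter only through the 72 h mice and so had to stand higher there. Class C had 10 rises and 10 falls of 24 genes at 72 h, including rises of Dnajc13, an endosomal protein, by 0.85 ± 0.09 and of Dnajc14 by 0.76 ± 0.07 (adjusted p = 2.72e-05 and 1.01e-05).

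From one time to the next, counts differed. From 1 h to 6 h, 5 of 68 genes rose and 6 fell, against 9.32% of all genes called higher and 11.2% called lower. From 6 h to 24 h, 15 rose and 2 fell (Hspa1a and Hspa1b), against 12.5% and 1.94% of all genes. These rises came to 0 with median-of-ratios scaling, 2 with quantile normalization and 29 with all 18 mice in one fit. Over all genes, 1664 rises came to 403, 371 and 4848 under the same settings. Leaving out 24 h replicate 2 or any 1 of the 6 h mice left 0 rises and 0 falls, and leaving out 24 h replicate 3 left 5 rises. The rises over all genes were then 27 without 24 h replicate 2 and 873 without 24 h replicate 3. They were 191, 1 and 1 without 6 h replicates 1, 2 and 3. From 1 h to 6 h, leaving out any 1 of the 1 h mice gave 2 to 3 rises and 1 to 3 falls. All genes then gave 458 to 629 rises and 362 to 548 falls, in place of 1241 and 1490. From 24 h to 72 h, 7 rose (Dnajb3 among them) and 20 fell, against 29.7% of all genes called higher and 13.5% called lower. Without 24 h replicate 3 the rises were 11, where those over all genes went from 3963 to 4818. The falls included Hspb1 (-2.23 ± 0.18, adjusted p = 0.000111), Hspb7 (-1.55 ± 0.12, adjusted p = 0.000105) and Dnaja4 (-1.06 ± 0.10, adjusted p = 0.000223). These comparisons share mice with those against control.

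Other genes of the same pathways, not taken by the symbol rule, were read alongside. The HSF1 and HSF2 genes were tested and not called at any time, with Hsf1 at 16.6, 13.7 and 17.4 FPKM in control mice and 13.1, 14.6 and 11.1 at 6 h. Of 4 HSP90 genes, 1 rose at 6 h, 2 rose at 24 h, and 2 rose and 2 fell at 72 h. A list of 4 genes is too short to set such counts against the shares over all genes. Hsp90aa1, the inducible cytosolic HSP90, was at 53.6, 51.0 and 63.7 FPKM in control mice and 192, 99.1 and 103 at 6 h (1.15 ± 0.24, adjusted p = 0.0148). It was also higher at 72 h (1.41 ± 0.13, adjusted p = 1.76e-05). The ER form Hsp90b1 rose by 0.89 at 24 h and 1.35 at 72 h, and the mitochondrial form Trap1 fell by 0.76 ± 0.07 at 72 h (adjusted p = 9.67e-06).

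Of 21 cofactors of HSP70 and HSP90, 2 rose and 3 fell at 6 h, 6 rose and 1 fell at 24 h and 7 rose and 7 fell at 72 h. Their 6 h shares (9.52% higher, 14.3% lower) lay near those of all genes (11.6% and 16.8%). Their 24 h rises (28.6%) also lay near the background of 26.2%. By 72 h the cofactors rose less often and fell more often than all genes (53.1% and 24.2%). Fkbp5, a glucocorticoid-induced immunophilin, had the largest rise of these at 6 h, from 12.0, 17.3 and 15.9 FPKM to 112, 134 and 157 (3.08 ± 0.16, adjusted p = 0.00015). Its paralogue Fkbp4 fell by 0.51 ± 0.13 (adjusted p = 0.027) and Chordc1 by 0.61 ± 0.10 (adjusted p = 0.0059). Of 16 folding partners of the ER and the mitochondria, 2 rose at 6 h, 7 rose and 1 fell at 24 h, and 9 rose and 6 fell at 72 h. The 24 h rises of these partners (43.8%) exceeded the 26.2% of all genes, while their 9 rises by 72 h were close to the background of 53.1%. Sdf2l1, an ER protein that works with BiP, rose by 2.14 ± 0.15 at 24 h and 2.58 ± 0.11 at 72 h (adjusted p = 0.000992 and 1.61e-07). The disulfide isomerase Pdia6 rose by 2.15 ± 0.09 at 72 h (adjusted p = 1.49e-07).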

How the data were processed

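RNA-seq of left ventricle from 18 mice (6 groups of 3) was analysed. The authors trimmed reads with cutadapt 1.18 and mapped them with HISAT2 2.1.0 to mm10, per the submitters' processing notes, which also name StringTie 1.3.4d, Cufflinks and Cuffdiff. The annotation is not given in the sources used here. The deposited values are FPKM per gene symbol, computed by the authors, with no counts. Groups came from the sample titles, and all 18 columns were used.

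The 68 genes and all lists were chosen with earlier results of these data known. FPKM were taken as deposited and tested as log2(FPKM + 1) (pseudocount 1), among symbols with FPKM of at least 1 in at least 1 of 18 mice (13333 symbols), with limma 3.58.1 in R 4.3.3 (eBayes with a variance trend, two-sided) on the 6 mice compared. Benjamini-Hochberg adjustment ran over all genes tested, and "called" means an adjusted p under 0.05. Fold changes on this scale understate those of low genes. With 3 mice against 3, precision rests on these mice alone. The test was checked on simulated data. Named genes were the 6 largest rises and 6 largest falls called without overlap in each comparison with control, a list of well-known members and, among related genes, the largest called changes of each list. Dnajb6, Dnajb12, Dnajc8, Dnajc12, Dnajc13, Dnajc14, Dnajc16, Dnajc18, Dnajc19, Dnajc24, Dnajc25, Dnajc30, Hspa12b, Hspa14, Hspb11, Tcp1, Hsf1 and Hsf2 were named outside this rule, after their values were seen. Alternatives were no filter, a mean filter, a pseudocount of 0.1, quantile normalization, a common FPKM sum, scaling by the median of ratios, all 18 mice in 1 fit, no variance trend, a replicate block and each mouse left out. Hspa1a and Hspa1b were also summed as 1 gene, added after seeing the data. Gene positions and shared windows came from GENCODE M21, and promoters from RefSeq (GRCm38.p6). Protein sequences were not analysed here. Python 3.11.15, pandas 2.3.3 and matplotlib 3.10.9 were used.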

Additional observations from a re-analysis of the deposited data

Results flagged for a closer look

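In 3 genes the effect at 24 h and the effect at 72 h were both called and in opposite directions, and the direct comparison of 72 h with 24 h was called too. Hspb7 differed by -1.55 on the log2 scale between 72 h and 24 h, Hspb2 by -1.23 and Dnajb9 by -0.96 (limma, adjusted p = 0.000105, 0.000492 and 0.00165). The genes were picked by these calls on shared mice, so the direct comparison is not separate support. All 3 of these differences kept their calls under every alternative. The calls of Hspb7 and Hspb2 against control at 24 h and 72 h did so too, but those of Dnajb9 did not. Its 24 h call was lost without Control replicate 1 or 3 (limma adjusted p up to 0.0578). Its 72 h call was lost with all 18 mice in one fit (0.059).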

How the results depend on the processing

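Values of 160 gene calls were recomputed 2404 times, and 2004 kept their call, 393 kept the direction without passing and 7 turned. Under median-of-ratios scaling the 72 h changes of Cct7 (-0.14), Dnajc25 (-0.036) and Dnajc8 (-0.12) turned negative, and under quantile normalization those of Dnajc24 (-0.085), Dnajc25 (-0.18), Hspa14 (-0.0037) and Hspa1l (-0.23), the last now called lower. Median-of-ratios scaling gave 14 rises and 4 falls at 6 h, 12 falls at 24 h, 19 rises at 72 h, 9 rises from 1 h to 6 h, 0 rises from 6 h to 24 h and 33 falls from 24 h to 72 h, and it moved the median of all genes from 0.13 to 0.02 at 24 h and from 0.29 to 0.04 at 72 h. Quantile normalization gave 12 falls at 24 h and 2 rises from 6 h to 24 h. Without a filter there were 4 rises at 6 h, and 9 rises and 0 falls from 6 h to 24 h. Without a variance trend there were 4 falls at 6 h, and with all 18 mice in one fit 29 rises and 5 falls from 6 h to 24 h. Under these settings, counts of the same comparisons that are not named here stayed within 1.5 times. The cause of these moves was not tested.

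Replicate numbers did not pair the mice: across genes, deviations of same-numbered mice correlated from -0.33 to 0.41. With a replicate block there was 1 rise at 1 h, and there were 4 falls at 6 h, 4 falls at 24 h, 2 falls from 1 h to 6 h, and 0 rises and 0 falls from 6 h to 24 h. Over all genes, the block left 1 rise and 0 falls from 6 h to 24 h.

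Leaving out 1 mouse gave 0 to 1 rises at 1 h, 3 to 9 rises and 3 to 9 falls at 6 h, 12 to 27 rises and 0 to 9 falls at 24 h, 2 to 6 rises and 1 to 8 falls from 1 h to 6 h, 0 to 11 rises and 0 to 2 falls from 6 h to 24 h, and 5 to 11 rises and 15 to 24 falls from 24 h to 72 h. Calls over all genes moved as well, with 1262 to 4043 rises at 24 h and 1 to 1745 rises from 6 h to 24 h. With Hspa1a and Hspa1b summed as 1 gene, chosen after seeing the data, the fall of Hspa1a from 24 h to 72 h was no longer called, and 1 fall in place of 2 was counted from 6 h to 24 h. The FPKM carry no read depth.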
